A study of Mus musculus with 14 samples.

Results

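The genes described here encode collagen chains, the polypeptides that wind around each other into the rope-like collagen proteins of the extracellular matrix. They are every gene whose array annotation gives a single symbol of the form Col, number, a, number. Where a gene had more than 1 probe set, a set of array probes read together as 1 value, the set with the highest mean was used. This gave 44 chains of the 19938 genes measured. By type, 11 chains were fibrillar, 6 were type IV chains of the basement membrane, 9 were FACIT chains, which are fibril-associated collagens with interrupted helices, and 18 were of other types.

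Fibrillar collagens assemble into the fibres that carry tension through the connective tissue of muscle and tendon, and FACIT chains lie along the surface of such fibres. Type IV collagen forms the sheet-like network of the basement membrane that wraps each muscle fibre and capillary, and type VI collagen forms microfibrils between that membrane and the interstitial matrix. In muscle, fibroblasts and fibro-adipogenic progenitors are known as the main source of type I, III and VI collagen, while type IV chains are made by many cell types.

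The study followed the plantaris, a calf muscle, while it grew under overload in male C57BL/6J mice aged 5 months. Overload was imposed by synergist ablation, in which the calf muscles that normally assist the plantaris are cut away. Sampling days were 0, 1, 3, 5, 7, 10 and 14, with 1 array of pooled right and 1 of pooled left plantaris muscles per day, each pool made from 6 animals. All comparisons are with day 0 or between days of overload, and no sham-operated group was used here. Whether the same animals gave both pools of a day is not in the labels, so p-values reflect pool-to-pool spread alone, and that spread may be technical. RNA came from whole muscle, so a gain or loss of cells that express a chain and a change in RNA per cell cannot be told apart.

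The 14 arrays (Affymetrix Mouse Gene 1.0 ST) had median intensities between 242.8 and 254.9. Values below are log2 of the deposited intensity, and a difference of 1 is a doubling. Differences are given ± the standard error of the limma fit, each from 2 pools against 2, and a gene was called at a Benjamini-Hochberg adjusted p under 0.05 over all 19938 genes. The probes of each gene differ, so levels are compared between days within a gene and not between genes. No chain was called between right and left pools (0 of 44, and 0 of all genes, in limma). That test sees only a side difference shared across days, so it cannot show whether the pools of a single day agree. The 7 measured hepatocyte markers differed widely between pools, with mean log2 levels from 8.28 to 12.71. Their mean was highest in the day 0 left pool, at 12.55, and the day 1 right pool, at 12.71, followed by the day 3 left pool, at 11.66. The counts of all chains called at day 1 are therefore also given without the day 0 left and day 1 right pools. These are called hepatocyte-rich for their marker levels alone. Some calls on each later day changed without them too. The 8 muscle fibre markers were bright on every array, with means from 13.20 to 13.93.

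At day 7, 20 of the 44 chains were called higher and 12 lower than at day 0, against 28.5% and 37.8% of all genes. The largest rises were those of Col12a1, Col8a1, Col1a1, Col5a2, Col3a1, Col1a2, Col6a3 and Col14a1, each over 6-fold. Rises over 2-fold were called for 13 chains, against 9.68% of all genes, and no chain fell 2-fold, against 5.58%. The differences ran from -0.64 to 3.81, and some of the called rises were under 2-fold. The median difference of the chains was only 0.043, beside -0.15 for all genes. The pools of day 7 and day 0 did not overlap for 38 of 44 chains, against 84.4% of all genes. The count of lower chains rested on the day 7 right pool, since 4 remained in number without it, and equal array medians gave 18 higher and 15 lower.

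The chains were also split by their level at day 0, a split chosen after the data were seen. At day 0, 10 chains lay in the brightest of 3 equal classes of genes: Col1a1, Col1a2, Col3a1, Col4a1, Col4a2, Col6a1, Col6a2, Col6a3, Col12a1 and Col15a1. All 10 were called higher at day 7, with a median difference of 2.49, where 32.8% of all genes of that class were called higher and their median was -0.10. Of the other 34 chains, 10 were called higher and 12 lower, or 29.4% and 35.3%, near the 26.3% and 34.7% of all other genes. The rising chains thus lay on both sides of the boundary, and Col8a1, Col5a2 and Col14a1 were among those below it. The arrays of day 0 enter both the split and the difference.

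**Figure D1:**
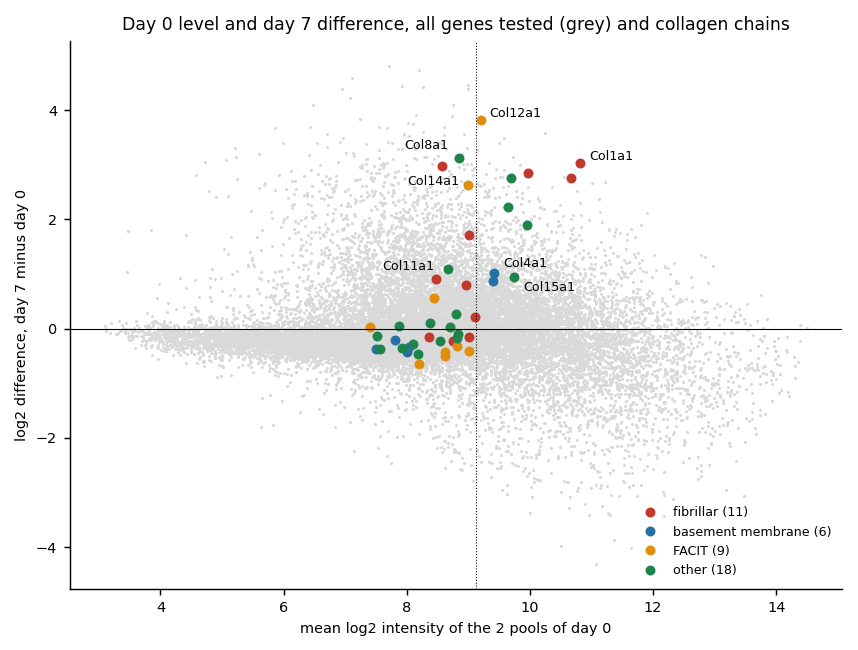
Log2 difference between day 7 and day 0 (vertical) against the mean log2 intensity of the 2 pools of day 0 (horizontal) for all 19938 genes in grey and the 44 collagen chains coloured by type. The dotted line is the boundary of the brightest of 3 equal classes of genes at 9.12. All 10 chains to its right lie above 0, and the 34 to its left hold both strong rises and small differences around 0.

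Over the course, 39 of 44 chains changed by the moderated F test of limma across all days, against 71.3% of all genes, and 16 of them also differed over 2-fold from day 0 on some day, against 19.8%. The F test called 11 of 11 fibrillar chains, 5 of 6 type IV chains, 9 of 9 FACIT chains and 14 of 18 others. Col13a1, Col17a1, Col28a1, Col4a6 and Col7a1 did not pass it. Their largest differences from day 0 were falls of 0.27 to 0.40, all at day 1 or day 5.

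At day 3, 16 chains were called higher and 4 lower, against 24.2% and 23.4% of all genes. At day 5 there were 18 higher and 16 lower, against 27% and 38.1%. At day 10 there were 19 higher and 3 lower, against 23.6% and 27.5%, and at day 14 there were 20 higher and 2 lower, against 21.4% and 20.7%. The number of chains over 2-fold higher grew from 0 at day 1 and 8 at day 3 to 11, 13, 15 and 16 at days 5, 7, 10 and 14. The background of such rises was 6.12%, 7.52%, 8.64%, 9.68%, 6.69% and 4.9% of all genes on the same 6 days. No chain was 2-fold lower on any of them, against 3.17%, 4.3%, 4.29%, 5.58%, 2.55% and 1.29%. Of the calls from day 3 to day 14, single pools ended 2 of 16, 2 of 18, 2 of 20, 1 of 19 and 2 of 20 higher ones, and 2 of 4, 11 of 16, 8 of 12, 2 of 3 and 2 of 2 lower ones.

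Counts of lower chains moved more than those of higher chains. Quantile normalization gave 15 higher and 7 lower at day 3, 16 and 18 at day 5, 18 and 17 at day 7 and 18 and 8 at day 10. Lower chains at day 5 were 5 without the day 5 left pool and 9 without the day 0 left pool. At day 3 they were 2 without the day 0 right pool. At day 10 they were 1 without the day 0 right pool, or without either pool of day 10. At day 14 they were 1 without the day 0 right pool and 0 without the day 14 left pool.

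**Figure D2:**
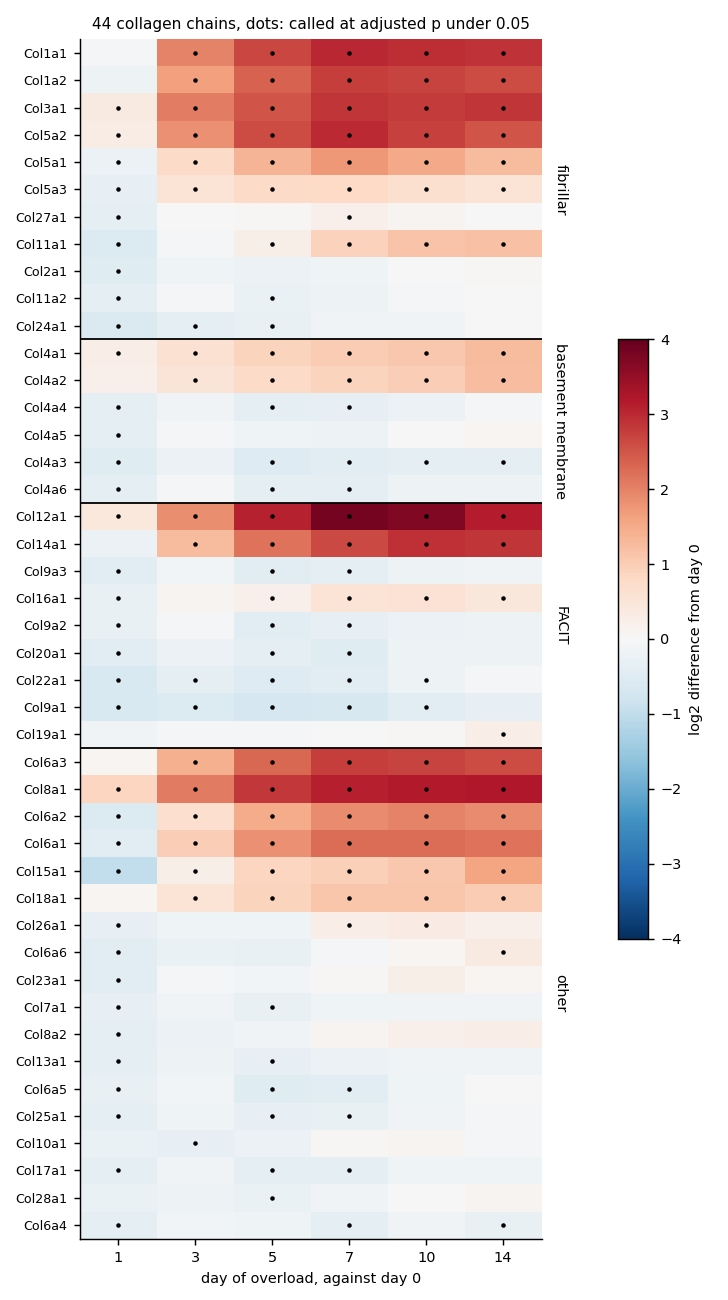
Log2 difference from day 0 for each of the 44 chains (rows, by type and then by mean brightness) at days 1 to 14 of overload (columns), with red higher and blue lower. Dots mark calls at an adjusted p under 0.05. The mean that orders the rows includes the overload days, so a rise itself moves a chain upward. The first column, day 1, is mostly blue.

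Day 1 ran the other way. There 5 chains were called higher and 30 lower, against 20.3% and 34.7% of all genes, and the median difference of the chains was -0.35 beside -0.14 for all genes. The 5 higher ones were Col8a1 (0.87 ± 0.088), Col12a1 (0.41 ± 0.10), Col3a1 (0.36 ± 0.083), Col5a2 (0.29 ± 0.078) and Col4a1 (0.26 ± 0.074). The lower ones ran from Col15a1 (-0.98 ± 0.087), Col22a1 (-0.61 ± 0.08) and Col9a1 (-0.60 ± 0.13) to Col5a1 (-0.24 ± 0.079), and held Col6a2 (-0.55 ± 0.074), Col6a1 (-0.43 ± 0.081) and Col5a3 (-0.34 ± 0.069). Most lower calls were of chains outside the brightest class at day 0. Of those 34 chains, 2 were higher and 27 lower, against 16.8% and 29.8% of the other genes. Of the 10 chains in that class, 3 were higher and 3 lower, against 27.3% and 44.6% of its genes. The arrays of day 0 enter this split and the difference. With both hepatocyte-rich pools left out there were 3 higher and 15 lower chains. That left 1 pool of each of these days, so a change of a call and the loss of pools cannot be told apart. Col12a1 then differed by 0.25, Col5a2 by 0.22, Col1a2 by -0.36 and Col14a1 by -0.43. Of the lower chains, Col9a3 went from -0.45 to -0.42 and Col27a1 from -0.36 to -0.34. Col4a6 went from -0.38 to -0.18 and Col9a2 from -0.31 to -0.18. Leaving out the day 1 left pool also gave 3 higher chains, and 3 of the 5 higher and 13 of the 30 lower calls ended without some single pool; the higher ones were Col12a1, Col5a2 and Col4a1.

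Against day 0 and with all pools used, 9 chains were called lower at day 1 and higher at day 7, against 3.41% of all genes. By day 7, 26 chains were called higher than at day 1 and none lower, against 25.4% and 19.1% of all genes. The lowest difference, -0.15, was that of Col6a5. Leaving out the day 7 left pool gave 1 lower call.

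Promoter sequences were set beside the chains because 16 of the 44 rose over 2-fold on some day. A window of 250 bases before to 50 bases after the start was found in the RefSeq table (build GRCm38.p6) for 35 of the 44 chains. Both strands were searched, and a gene was counted if any of its windows held the motif. TATAAA was found for 14.3% of these chains and for 15.7% of all 27025 genes with a window, and CCAAT for 37.1% and 41.1%. GGGCGG was found for 62.9% and 38.2%, and TGANTCA for 2.86% and 8.97%. Below are the 120 bases just before the start of 4 chains that rose, chosen to show 1 of each motif, 5′ to 3′ on the strand of the gene, with the motif in capitals. Those of Col3a1 (chr1:45311418-45311537, plus strand) hold TATAAA, and those of Col1a2 (chr6:4505498-4505617, plus strand) hold CCAAT. The stretch of Col6a1 (chr10:76726045-76726164, minus strand) holds TGANTCA, and that of Col8a1 (chr16:57754738-57754857, minus strand) holds GGGCGG on the opposite strand at 3 places. A match is a string of letters and does not show that a factor binds there.
Col3a1: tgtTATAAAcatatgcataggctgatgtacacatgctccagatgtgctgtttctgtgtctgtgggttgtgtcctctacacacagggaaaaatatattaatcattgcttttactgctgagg
Col1a2: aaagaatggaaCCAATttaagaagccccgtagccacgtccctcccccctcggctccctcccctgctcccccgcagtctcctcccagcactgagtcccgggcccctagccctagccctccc
Col6a1: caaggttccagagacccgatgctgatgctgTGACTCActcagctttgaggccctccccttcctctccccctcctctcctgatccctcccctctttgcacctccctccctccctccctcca
Col8a1: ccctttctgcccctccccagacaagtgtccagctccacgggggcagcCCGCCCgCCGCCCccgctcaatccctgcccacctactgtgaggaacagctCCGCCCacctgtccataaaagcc

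Among the fibrillar chains 8 of 11 were called higher at day 7 and none lower, against 28.5% and 37.8% of all genes, with a median difference of 0.91. The type I chains were not called at day 1 and rose from day 3, and neither day 10 nor day 14 was called against day 7. Col1a1, which with Col1a2 makes type I collagen, the main fibre of tendon and interstitial matrix, had log2 levels, right pool first, of 10.90 and 10.73 at day 0, 10.62 and 10.84 at day 1, 12.88 and 12.69 at day 3, 13.43 and 13.52 at day 5, 13.83 and 13.85 at day 7, 13.76 and 13.79 at day 10 and 13.67 and 13.73 at day 14. The pools of days 0 and 1 overlapped, and every pool from day 3 onward lay above them. The difference from day 0 was -0.082 ± 0.095 at day 1 and 3.03 ± 0.095 at day 7, a rise of 8.15-fold (limma adjusted p = 1.43e-09). Col1a2 had levels of 10.80 and 10.55 at day 0, 10.48 and 10.43 at day 1, 12.40 and 12.25 at day 3, 12.99 and 13.09 at day 5, 13.43 and 13.44 at day 7, 13.38 and 13.36 at day 10 and 13.28 and 13.30 at day 14. Both pools of day 1 lay below both of day 0, but the difference, -0.21 ± 0.088, did not pass the test (limma adjusted p = 0.0588). At day 7 the difference was 2.77 ± 0.088 and at day 14 2.62 ± 0.088.

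Col3a1, whose type III fibres form the finer mesh of young and repairing connective tissue, had levels of 10.05 and 9.89 at day 0, 10.29 and 10.37 at day 1, 12.10 and 11.91 at day 3, 12.50 and 12.49 at day 5, 12.85 and 12.80 at day 7, 12.76 and 12.79 at day 10 and 12.79 and 12.84 at day 14. Unlike the type I chains it was called higher at day 1, by 1.28-fold, and both pools of that day lay above both of day 0. At day 7 it was 7.25-fold higher, and at day 14 7.19-fold. The difference between day 14 and day 7 was -0.012 ± 0.083 and did not pass the test.

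The type V chains join type I fibrils and limit their width. Col5a2 had levels of 8.67 and 8.47 at day 0, 8.83 and 8.88 at day 1, 10.46 and 10.35 at day 3, 11.15 and 11.17 at day 5, 11.57 and 11.52 at day 7, 11.31 and 11.28 at day 10 and 11.09 and 11.06 at day 14. Its pools separated from those of day 0 already at day 1, peaked at day 7 and came down after it. The difference at day 7 was 2.97 ± 0.078, a rise of 7.86-fold, and from day 7 to day 14 the level fell by 0.46 (limma adjusted p = 0.00109). Col5a1 had levels of 8.92 and 9.08 at day 0, 8.81 and 8.73 at day 1, 9.81 and 9.74 at day 3, 10.29 and 10.43 at day 5, 10.76 and 10.69 at day 7, 10.56 and 10.51 at day 10 and 10.26 and 10.29 at day 14. It was lower at day 1, highest at day 7, at 1.72 ± 0.079, and lower again at day 14 than at day 7, by -0.45 ± 0.079. Col5a3, the remaining type V chain, had day 0 levels of 9.02 and 8.91 and day 7 levels of 9.80 and 9.75. It rose by 1.75-fold at day 7 and was -0.26 ± 0.069 lower at day 14 than at day 7.

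Col11a1, a chain of type XI collagen best known from cartilage fibrils, was lower at day 1 and higher at day 7. Its levels were 8.52 and 8.44 at day 0, 7.94 and 7.95 at day 1, 8.49 and 8.40 at day 3, 8.67 and 8.74 at day 5, 9.34 and 9.45 at day 7, 9.69 and 9.58 at day 10 and 9.66 and 9.65 at day 14. The pools of day 1 were the lowest of the course, those of day 3 overlapped day 0, and those of days 7, 10 and 14 lay above every earlier pool. The difference was -0.54 ± 0.071 at day 1, 0.91 ± 0.071 at day 7 and 1.17 ± 0.071 at day 14, when the level was 2.25-fold that of day 0. The other chain of that type, Col11a2, and Col2a1, the cartilage fibril chain, were not called at day 7, with -0.22 ± 0.11 and -0.16 ± 0.11. Of the 7 cartilage markers, Acan, the large cartilage proteoglycan, Sox9, a cartilage transcription factor, and Matn3 were higher at day 7, and 3 others were lower, with list mean levels from 7.12 and 7.19 at day 0 to 7.27 and 7.36 at day 7. The part of such cells in the rise of Col11a1 was not tested. Col24a1 differed by -0.15 ± 0.08 at day 7 and was not called. Col27a1 was called at day 7 with 0.21 ± 0.085, but the call ended when the day 7 left pool was left out (0.15), as it did without each of 8 other pools.

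**Figure D3:**
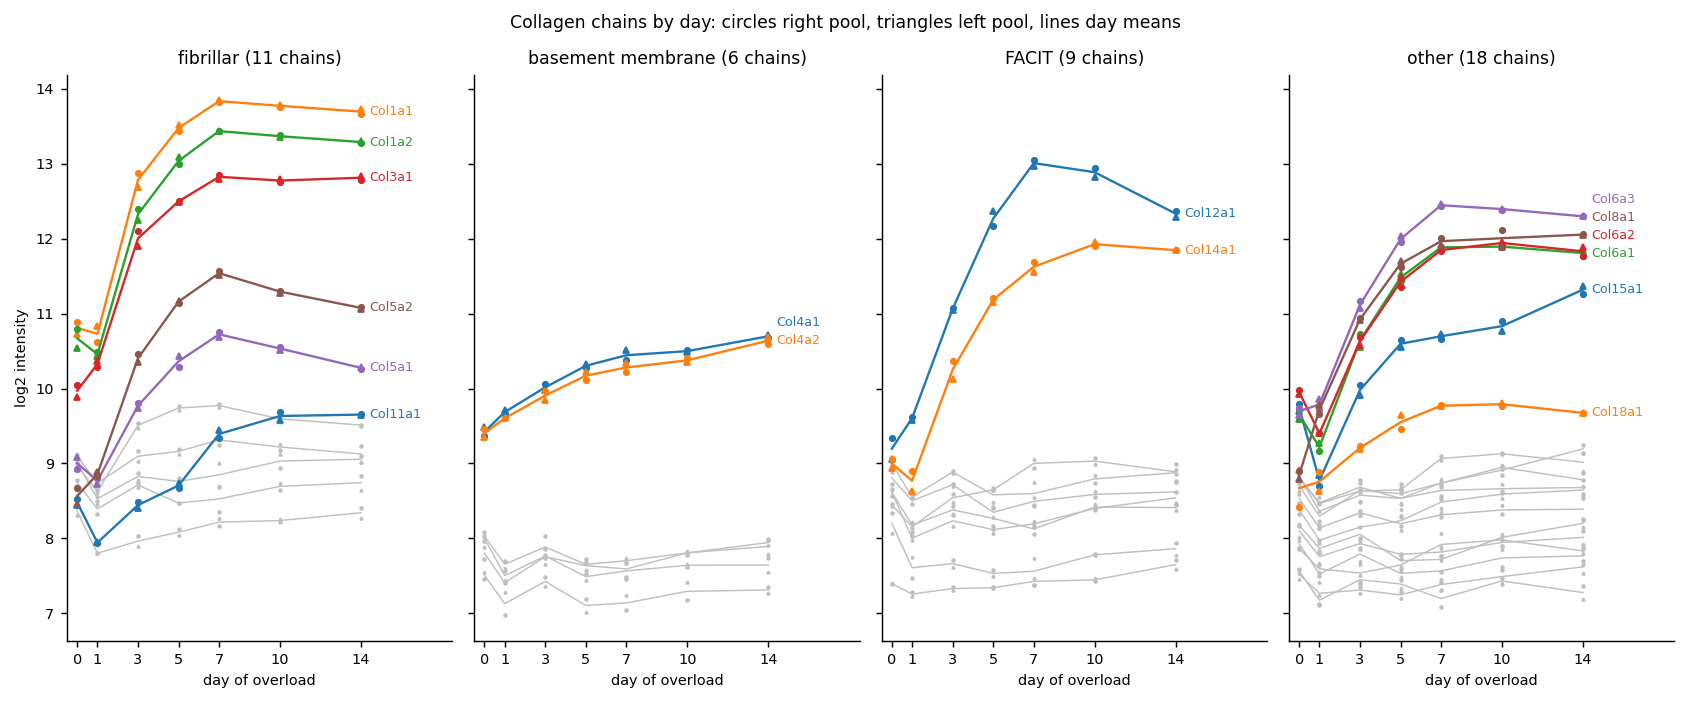
Log2 intensity of the 44 chains (vertical) by day of overload (horizontal), 1 panel per type. Circles are right pools, triangles left pools and lines day means; the 16 chains that differed over 2-fold from day 0 on some day are coloured and named, and the others are grey. The named chains climb between days 1 and 7, after which Col12a1, Col5a1 and Col5a2 turn down and Col15a1 climbs on.

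Of the 9 FACIT chains, 3 were called higher and 5 lower at day 7, against 28.5% and 37.8% of all genes, and the median difference was -0.32. Col12a1, which coats fibrils in tendon and muscle and is known to respond to tension, rose most of all 44 chains. Its levels were 9.33 and 9.06 at day 0, 9.63 and 9.58 at day 1, 11.08 and 11.05 at day 3, 12.17 and 12.37 at day 5, 13.05 and 12.97 at day 7, 12.95 and 12.83 at day 10 and 12.38 and 12.29 at day 14. Every pool of overload lay above both pools of day 0, and the pools of day 7 were the highest of the course. The difference grew from 0.41 ± 0.10 at day 1 to 3.81 ± 0.10 at day 7, which is 14.1-fold (limma adjusted p = 7.24e-10). By day 14 it had fallen back by 0.68 from day 7 (limma adjusted p = 0.000464), yet stood 8.8-fold above day 0.

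Col14a1, the chain of the related type XIV collagen, had levels of 9.06 and 8.94 at day 0, 8.90 and 8.64 at day 1, 10.37 and 10.13 at day 3, 11.21 and 11.16 at day 5, 11.69 and 11.56 at day 7, 11.90 and 11.96 at day 10 and 11.84 and 11.85 at day 14. It showed no early rise: at day 1 its pools lay below those of day 0, with a difference of -0.23 ± 0.10 that did not pass the test. It reached 2.63 ± 0.10 at day 7 and 2.93 ± 0.10 at day 10. Between day 7 and day 14 the difference was 0.22 ± 0.10, where that of Col12a1 was -0.68 ± 0.10; the difference between these courses was not tested. Col16a1, a minor chain of several connective tissues, rose by 1.47-fold at day 7 from levels of 8.46 and 8.43 to 8.95 and 9.06.

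None of the remaining FACIT chains was called higher at day 7. The type IX chains of cartilage, Col9a1, Col9a2 and Col9a3, were lower at day 7 by 0.64, 0.32 and 0.40, and Col20a1 was lower by 0.49. Col22a1, a chain of the muscle-tendon junction, had levels of 8.66 and 8.58 at day 0, 8.03 and 7.98 at day 1, 8.31 and 8.16 at day 3, 8.17 and 8.07 at day 5, 8.16 and 8.23 at day 7, 8.41 and 8.39 at day 10 and 8.61 and 8.47 at day 14. It was lower at days 1 to 10, by 0.61 at day 1 and 0.42 at day 7, though the day 10 call (-0.22 ± 0.08) ended without either pool of day 0 or day 10. At day 14, with -0.076 ± 0.08, it did not pass the test. From day 7 to day 14 it rose by 0.35 ± 0.08. Col19a1 was called only at day 14, with 0.25 ± 0.068, and not without the day 14 right pool. The day 7 call of Col9a2 ended without the day 0 left or the day 7 right pool and that of Col9a3 without the latter.

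Of the 6 type IV chains, 2 rose. Col4a1 and Col4a2, which together form the common basement membrane network, rose slowly and without a peak. Col4a1 had levels of 9.36 and 9.48 at day 0, 9.66 and 9.71 at day 1, 10.06 and 9.98 at day 3, 10.28 and 10.33 at day 5, 10.38 and 10.51 at day 7, 10.52 and 10.48 at day 10 and 10.68 and 10.72 at day 14. The pools of each day lay above those of day 0, and those of day 14 were the highest. It was 2.03-fold higher at day 7 and 2.42-fold at day 14, and the gain between these days, 0.25 ± 0.074, passed the test (limma adjusted p = 0.0244). Col4a2 had levels of 9.45 and 9.35 at day 0, 9.60 and 9.60 at day 1, 9.97 and 9.85 at day 3, 10.12 and 10.23 at day 5, 10.22 and 10.34 at day 7, 10.41 and 10.35 at day 10 and 10.59 and 10.69 at day 14. It was 1.84-fold and 2.36-fold higher on the same days, with a gain of 0.36 ± 0.079 between them. In the RefSeq table these genes start on opposite strands of chromosome 8, with starts 21 bases apart, each inside the other gene. Their promoter windows have 78 bases in common. Col4a6 and Col4a5, which were not called higher than at day 0, also lie head to head, on chromosome X. Their starts are 1343 bases apart and their windows have 0 bases in common.

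The other type IV chains did not rise. Col4a3 and Col4a4, partners in the kidney and lung network, were lower at day 7 by 0.43 and 0.33, and Col4a6 by 0.37. Col4a5 differed by -0.21 ± 0.10 and was not called. Their levels lay between 6.98 and 8.08 on all arrays. For the type as a whole, 2 chains were higher and 3 lower at day 7, against 28.5% and 37.8% of all genes, and the median difference was -0.27. The lower call of Col4a4 was lost without either of the day 0 and day 7 right pools, and that of Col4a6 without the day 0 left or the day 7 right pool.

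Of the 6 type VI chains, the microfibril chains Col6a1, Col6a2 and Col6a3 rose and Col6a4 and Col6a5 were lower at day 7, Col6a5 by its brighter probe set only. Col6a3 had levels of 9.74 and 9.65 at day 0, 9.72 and 9.86 at day 1, 11.16 and 11.07 at day 3, 11.96 and 12.03 at day 5, 12.44 and 12.46 at day 7, 12.39 and 12.40 at day 10 and 12.30 and 12.30 at day 14. Its pools of day 1 overlapped those of day 0. At day 7 it was 6.73-fold higher, with a difference of 2.75 ± 0.073. Col6a1 had levels of 9.71 and 9.59 at day 0, 9.16 and 9.27 at day 1, 10.72 and 10.56 at day 3, 11.44 and 11.53 at day 5, 11.89 and 11.88 at day 7, 11.88 and 11.91 at day 10 and 11.77 and 11.85 at day 14, and Col6a2 had levels of 9.98 and 9.93 at day 0, 9.40 and 9.40 at day 1, 10.69 and 10.58 at day 3, 11.36 and 11.49 at day 5, 11.83 and 11.86 at day 7, 11.92 and 11.96 at day 10 and 11.77 and 11.89 at day 14. Both were below their day 0 pools at day 1, by 0.43 and 0.55, and above them from day 3 on. At day 7 the differences were 2.23 ± 0.081 and 1.89 ± 0.074, which are 4.7-fold and 3.71-fold. From day 7 to day 14 all 3 changed by no more than 0.15, and none of these differences passed the test.

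Col8a1, a chain of the short-chain network collagen type VIII known from vessel walls and wound tissue, had the largest rise at day 1. Its levels were 8.90 and 8.79 at day 0, 9.66 and 9.78 at day 1, 10.94 and 10.91 at day 3, 11.63 and 11.71 at day 5, 12.01 and 11.92 at day 7, 12.12 and 11.89 at day 10 and 12.06 and 12.05 at day 14. Both pools of day 1 lay above both of day 0, and each later pool lay above those of day 1. The difference of 0.87 ± 0.088 at day 1 was 1.83-fold (limma adjusted p = 8.56e-06), and 0.88 without both hepatocyte-rich pools. It was 8.72-fold higher at day 7 and 9.27-fold at day 14, where it was the largest of the 44. Col8a2, its partner chain, and Col10a1, a growth plate chain, were not called at day 7, with 0.10 ± 0.11 and 0.053 ± 0.12.

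The multiplexins Col15a1 and Col18a1 anchor basement membranes to the matrix beneath and release fragments that act on vessels. Col15a1 had levels of 9.80 and 9.70 at day 0, 8.70 and 8.85 at day 1, 10.05 and 9.91 at day 3, 10.65 and 10.55 at day 5, 10.66 and 10.73 at day 7, 10.90 and 10.77 at day 10 and 11.27 and 11.38 at day 14. The pools of day 1 lay almost 1 log2 unit below those of day 0, the deepest fall of the 44 chains, and those of day 14 were the highest of the course. The difference was -0.98 ± 0.087 at day 1 (limma adjusted p = 3.44e-06), 0.95 ± 0.087 at day 7 and 1.57 ± 0.087 at day 14. The day 1 difference was -0.95 without both hepatocyte-rich pools. Its call at day 3, 0.23 ± 0.087, ended without either pool of day 0 (0.28 without the right pool and 0.19 without the left), and without the day 3 right pool (0.16), as it did without each of the 8 pools of days 5, 7, 10 and 14.

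Col18a1, the source of the vessel fragment endostatin, had levels of 8.42 and 8.92 at day 0, 8.88 and 8.63 at day 1, 9.23 and 9.19 at day 3, 9.46 and 9.64 at day 5, 9.78 and 9.76 at day 7, 9.77 and 9.81 at day 10 and 9.67 and 9.68 at day 14. Its left pool was the higher at day 0 and its right pool at day 1, and from day 3 every pool lay above both of day 0. The hepatocyte markers differed in the same directions, with means of 10.40 and 12.55 in the right and left pools of day 0 and 12.71 and 10.85 at day 1. The directions were also the same at days 5, 7 and 10. They were opposite at days 3 and 14, with marker means of 10.81 and 11.66 at day 3 and 10.18 and 8.99 at day 14. Liver is known to make Col18a1, but the part of such cells in its levels was not tested. The difference at day 7 was 1.10 ± 0.14, and without the day 0 left and day 1 right pools it was 1.35. At day 3 it was 0.54 ± 0.14, and it did not pass the test without the day 0 right pool (0.29).

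The transmembrane chains and the rest had small differences from day 0 at day 7. At day 1 all 4 transmembrane chains were called lower with all pools used, with differences from -0.41 to -0.34, against 34.7% of all genes. Without both hepatocyte-rich pools, Col13a1 then differed by -0.34 and Col17a1 by -0.32. At day 5, 3 of the 4 were called lower, against 38.1%. The day 1 calls of Col17a1 and Col25a1 and those of day 5 ended without some single pool. Col17a1 and Col25a1 were lower at day 7, by 0.36 and 0.28, calls that each ended without 1 pool of day 0 and without the day 7 right pool, and Col13a1 and Col23a1 were not called, with -0.22 ± 0.10 and 0.033 ± 0.10. Col7a1, the anchoring fibril chain of skin, and Col28a1 were not called either, with -0.18 ± 0.10 and -0.14 ± 0.11. Col26a1 was called at 0.26 ± 0.10, and the call ended without either pool of day 7 (0.23 without the right pool and 0.29 without the left), as it did without 7 other pools. Col6a4 was lower by 0.37 and Col6a5 by 0.46, neither of them without the day 7 right pool, while Col6a6 differed by -0.09 ± 0.13 and was not called.

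Steps between neighbouring days placed most of the rise between days 1 and 5. From day 1 to day 3, 26 chains rose and none fell, against 21.5% and 13.2% of all genes. The largest step was that of Col1a1, 2.06 ± 0.095, followed by Col1a2, 1.87 ± 0.088, and Col3a1, 1.68 ± 0.083. Without the day 3 right pool, 16 chains rose.

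From day 3 to day 5, 14 chains rose and 1, Col9a2, fell, against 6.41% and 4.74% of all genes. Col12a1 made the largest step, 1.21 ± 0.10, with Col14a1 at 0.93 ± 0.10 and Col6a3 at 0.88 ± 0.073. The call of Col9a2 ended without any 1 pool of days 3, 5 or 10, and without either pool of day 7 there were 2 lower calls.

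From day 5 to day 7, 6 chains rose and none fell, against 0.667% and 0.487% of all genes. They were Col12a1 (0.74 ± 0.10), Col11a1 (0.69 ± 0.071), Col6a3 (0.45 ± 0.073), Col6a2 (0.42 ± 0.074), Col6a1 (0.40 ± 0.081) and Col5a2 (0.38 ± 0.078). The count was 1 without the right pool of day 5 or day 7, and 2 without the day 7 left pool.

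**Figure D4:**
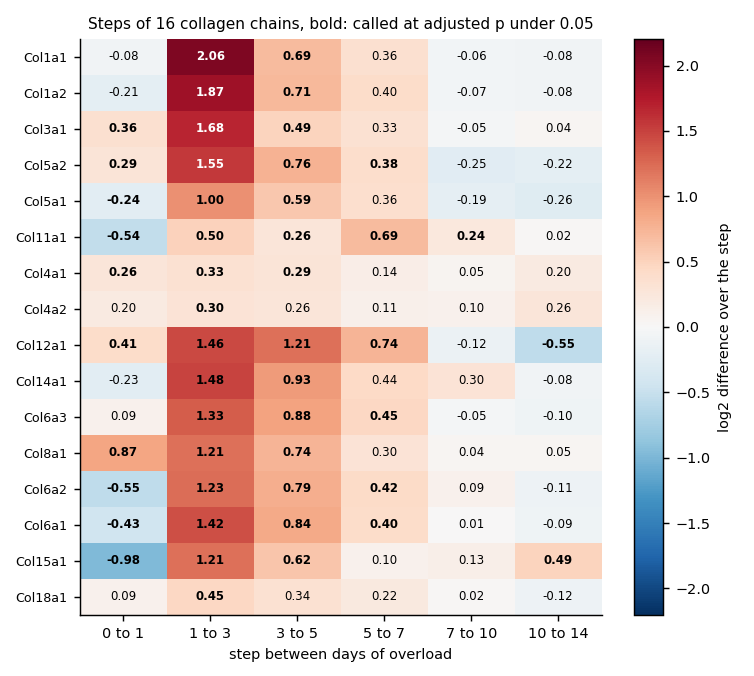
Log2 difference over each step between neighbouring days (columns) for 16 chains (rows), those that differed over 2-fold from day 0 on some day. Numbers are the differences, bold where called at an adjusted p under 0.05, with red higher and blue lower. The darkest column is the step from day 1 to day 3, and the largest steps after day 7 are those of Col12a1 and Col15a1 from day 10 to day 14.

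After day 7 few steps passed the test. From day 7 to day 10, only Col11a1 was called, with 0.24 ± 0.071, against 6.95% of all genes higher and 9.52% lower. From day 10 to day 14, Col15a1 rose by 0.49 ± 0.087 and Col12a1 fell by 0.55, against 2.11% and 2.56%. Each of the calls from day 10 to day 14 ended without any 1 pool of those days. That of Col11a1 ended without either pool of days 3, 10 or 14 or the day 7 right pool, without either pool of day 5 there were 2 higher calls, and without either pool of day 0 there was 1 lower call.

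Set against day 7 directly, day 14 had 10 chains higher and 4 lower, against 13.5% and 16.1% of all genes. The 4 lower ones were Col12a1 and the type V chains Col5a1, Col5a2 and Col5a3. The higher ones included Col15a1 (0.62 ± 0.087), Col4a2, Col4a1 and Col11a1, besides Col6a5, Col6a6, Col22a1, Col20a1, Col19a1 and Col4a5. The count of higher chains was 1 without the day 7 right pool, 2 without the day 14 right pool and 6 without the day 14 left pool. Of the 16 chains over 2-fold higher on some day, 7 had their highest mean at day 7, 4 had it at day 10 and 5 had it at day 14. Of those highest at day 7, Col12a1, Col5a1 and Col5a2 were called lower at day 14, whereas for Col1a1, Col1a2, Col3a1 and Col6a3 neither day 10 nor day 14 was called against day 7. Highest at day 14 were Col4a1, Col4a2, Col8a1, Col11a1 and Col15a1, of which Col8a1 was not called against day 7.

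Lists of genes that act on collagen were read at day 7 against the same 28.5% of all genes called higher and 37.8% lower. Of 20 measured genes of procollagen folding and modification, 16 were higher and 3 lower at day 7, with a median difference of 1.46. P4ha3, a prolyl hydroxylase subunit that stabilises the helix, differed by 4.23 ± 0.093, and Plod2, a lysyl hydroxylase, by 3.83 ± 0.11. Crtap, part of a prolyl hydroxylase complex, differed by 2.23 ± 0.083, and Creb3l1, a transcription factor of collagen-secreting cells, by 2.18 ± 0.069. From day 7 to day 14 this list turned down, with 16 of 20 lower and a median of -0.45. Over the same days 4 of the 44 chains were lower and 10 higher, with a median of 0.13. Among the 11 fibrillar chains 3 were lower and 1 higher, with a median of -0.14. Of all genes 16.1% were lower, with a median of 0.048.

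Of 12 genes of procollagen cleavage and cross-linking, 10 were higher and 2 lower at day 7. Lox, which cross-links fibrillar collagen, differed by 4.10 ± 0.082, and its relatives Loxl3 and Loxl1 by 2.46 ± 0.093 and 2.23 ± 0.069. Pxdn, which cross-links type IV collagen, differed by 2.46 ± 0.071. Lox was already 2.45 ± 0.082 higher at day 1, where Col1a1 differed by -0.082 ± 0.095.

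All 9 measured collagen receptors were higher at day 7. Lair1, an inhibitory receptor of leukocytes, differed by 2.30 ± 0.13, and Mrc2, which takes up collagen fragments, by 2.26 ± 0.10. Itga11, the integrin chain by which fibroblasts hold type I collagen, differed by 1.61 ± 0.12 after -1.01 ± 0.12 at day 1, and Ddr2, a kinase receptor for fibrillar collagen, by 1.08 ± 0.068.

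Of 10 genes of collagen breakdown, 8 were higher and 1 lower at day 7. Timp1, an inhibitor of the collagen-cutting proteases, differed by 4.44 ± 0.11. The collagenase Mmp13 differed by 3.68 ± 0.26, the bone and fibroblast protease Ctsk by 3.14 ± 0.16 and the membrane protease Mmp14 by 3.03 ± 0.079. Mmp8, the neutrophil collagenase, differed by -0.68 ± 0.34 and did not pass the test.

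Of 10 other basement membrane genes, 8 were higher and 1 lower at day 7. The laminin chains Lamb1 and Lama4 differed by 2.12 ± 0.089 and 1.53 ± 0.083, and Nid2 and Nid1, the nidogens that link laminin to type IV collagen, by 1.48 ± 0.092 and 1.39 ± 0.073. Lama5 differed by 0.13 ± 0.10 and did not pass the test. From day 7 to day 14, 4 of these genes rose and none fell, against 13.5% and 16.1% of all genes.

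Markers of matrix-forming cells also changed over the course. Of all genes, 20.3% were called higher and 34.7% lower at day 1, and 24.2% and 23.4% at day 3. The shares were 27% and 38.1% at day 5, and 28.5% and 37.8% at day 7. They were 23.6% and 27.5% at day 10, and 21.4% and 20.7% at day 14. Of the 7 measured fibroblast markers, 6 were lower and 1 was higher at day 1, 5 were higher and none lower at day 7, and all 7 were higher at day 14. Their mean log2 level went from 10.64 and 10.54 in the pools of day 0 to 10.23 and 10.15 at day 1, 11.51 and 11.51 at day 7 and 11.86 and 11.95 at day 14. Of the 7 tendon markers, 4 were lower and 1 higher at day 1, 5 were higher at day 7 and all 7 at day 14, with means from 9.69 and 9.55 at day 0 to 10.56 and 10.71 at day 7 and 11.28 and 11.29 at day 14. The part of these cells in the changes of the chains was not tested.

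Other cell markers followed other courses, and their counts stand beside the same shares of all genes. All 6 macrophage markers were higher on every day of overload, with means from 8.52 and 8.41 at day 0 to 11.72 and 11.73 at day 3 and 10.06 and 10.17 at day 14. The 7 endothelial markers had 5 higher and 2 lower at day 7, with means of 10.47 and 10.44 at day 0 and 10.64 and 10.64 at day 7. The 6 mural cell markers were all lower at day 1, and at day 7 had 4 higher and 2 lower, with means of 10.55 and 10.60 at day 0, 9.72 and 9.73 at day 1 and 10.86 and 10.89 at day 7. The 4 bone markers had 2 lower and none higher at day 7, the 3 Schwann cell markers 1 higher and 2 lower, and the 6 skin markers none in either direction in limma. Of the 8 muscle fibre markers all 8 were lower at days 3 and 7 and 1 at day 14. Of the 7 hepatocyte markers 6 were lower at day 7 than at day 0. The part of these cells in the changes of the chains was not tested.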

How the data were processed

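RNA of pooled plantaris muscle was hybridised to 14 arrays, 2 for each of 7 days. The deposited values are intensities on a linear scale, 1 per probe set, from 5.9 to 29501.5, and the authors made them with Partek, per the submitters' processing notes. Its version and the method of summarising and normalizing are not given in the sources used here, and the close array medians do not settle which was used. For the amount of RNA labelled, the design text gives 100 ng and the labelling protocol 250 ng.

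Tests ran on log2 of these intensities as deposited. The annotation gave 1 symbol to 21789 of 35556 probe sets and several to 1621, and 12146 were not listed; 999 genes had several probe sets, of which the brightest was kept. All 44 chain symbols matched RefSeq by gene number. limma 3.58.1 under R 4.3.3 fitted 1 mean per day to 19938 genes over all 14 arrays (7 residual degrees of freedom, prior 3.88), with two-sided tests and Benjamini-Hochberg adjustment per comparison. The script was checked on simulated data. Alternatives were another normalization, probe set rule, variance prior, gene filter, fold threshold or set of arrays, and side as a block.

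The chains, their types, the pathway and marker lists and the tests were chosen with earlier results of these data known. Per-array values are given for chains that passed the F test and differed over 2-fold on some day, and, of other genes, for each pathway list up to 4 called genes with the largest day 7 difference and, in lists of 12 or fewer, those not called; statements on other single genes were chosen after their values were seen. Listed genes without a single-symbol probe set, such as Loxl2, Adamts2 and Fbn1, were not analysed here. Chains without a promoter window in the RefSeq table include Col1a1, Col12a1, Col14a1 and Col5a2. Figures were drawn with matplotlib 3.10.9.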

Additional observations from a re-analysis of the deposited data

Results flagged for a closer look

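For 9 chains the direction against day 0 turned between day 1 and day 7: each was called lower at day 1 and higher at day 7, in limma, against 3.41% of all genes. The value given is day 7 minus day 1, and since the chains were chosen for lying on opposite sides of day 0, its sign follows from that choice and it is a description, with no test. Of the type VI chains, Col6a1 went from -0.43 to 2.23, a difference of 2.67, and Col6a2 from -0.55 to 1.89, a difference of 2.45. The type V chain Col5a1 went from -0.24 to 1.72, a difference of 1.96, and Col5a3 from -0.34 to 0.81, a difference of 1.14. Col15a1, the multiplexin, went from -0.98 to 0.95, a difference of 1.93. Col11a1 went from -0.54 to 0.91, a difference of 1.45, and Col16a1 from -0.29 to 0.55, a difference of 0.85. The smallest were Col26a1, from -0.34 to 0.26 with a difference of 0.60, and Col27a1, from -0.36 to 0.21 with a difference of 0.58. The day 1 calls of Col5a1, Col16a1 and Col26a1 and the day 7 calls of Col26a1 and Col27a1 ended without single pools. The count of 9 uses all pools. Without both hepatocyte-rich pools, the day 1 differences of Col5a1, Col16a1, Col26a1 and Col27a1 were -0.19, -0.24, -0.40 and -0.34. With 2 pools a day, no test for outlying pools was made.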

How the results depend on the processing

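Over the 6 days against day 0 there were 165 calls of single chains. Of these, 156 were kept with quantile normalization, 160 with equal array medians, 157 of the 157 still measured when the dimmest of 3 classes by mean level was dropped, 162 with the mean of a gene's probe sets, 163 with a trended prior and all with a robust prior or all probe sets tested. Side as a replicate block kept 159; the numbers do not pair the pools (right minus left deviations correlated between days from -0.58 to 0.44, over 0.1 in 9 of 21 pairs of days). The block left 0 lower calls from day 3 to day 5 and 0 higher from day 7 to day 10. Fitting only the 2 days compared kept 148 and gave 3 higher at day 1 and 1 lower at day 14. Without the day 0 left and day 1 right pools, 127 were kept, with 3 higher and 15 lower at day 1. Lower chains were 7, 8 and 4 at days 3, 10 and 14 with quantile normalization and 5 at day 10 with equal array medians. Normalization over only the genes tested was an alternative chosen after seeing the data: equal medians kept 154, with 10 and 6 lower at days 3 and 10, and moved the median of all genes at day 7 from -0.15 to -0.27; quantile kept 150, with 12, 10 and 4 lower at days 3, 10 and 14, and turned Col27a1 at day 7 to -0.00637. Against 1.5-fold (limma treat), 72 were kept, with 1 higher and 1 lower at day 1, 9 higher at day 3 and 0 lower from day 3 on. Over 2-fold there were 0, 8, 11 and 13 higher at days 1, 3, 5 and 7 and 0 lower throughout. Without that class, 10 chains rose from day 5 to day 7, 3 rose and 1 fell from day 7 to day 10, and 2 rose and 2 fell from day 10 to day 14. Leaving out 1 pool at a time gave, against day 0, 3 to 5 higher and 23 to 31 lower at day 1, 14 to 16 and 2 to 6 at day 3, 16 to 18 and 5 to 17 at day 5, 18 to 20 and 4 to 16 at day 7, 18 to 20 and 1 to 4 at day 10 and 18 to 21 and 0 to 3 at day 14. It gave 16 to 26 higher and 0 lower from day 1 to day 3, 12 to 15 and 0 to 2 from day 3 to day 5, 1 to 7 and 0 from day 5 to day 7, 0 to 2 and 0 to 1 from day 7 to day 10 and 0 to 1 each way from day 10 to day 14. Day 7 against day 1 gave 23 to 26 higher and 0 to 1 lower, day 14 against day 7 gave 1 to 13 and 3 to 4, and the F test 34 to 41. With 2 pools a day and a median standard error of 0.097 per chain, the smallest difference from day 0 that was called was 0.20, that of Col16a1 at day 5. The number of arrays limits the precision.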

Other observations

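Col6a5 and Col6a6, long chains of type VI collagen, each had a second, dimmer probe set that the counts above do not use. The second set of Col6a6 differed from day 0 by -0.75 at day 1 and by 0.14 at day 7, and at day 14 it was higher by 1.31 ± 0.10 (limma adjusted p = 2.14e-06 over all probe sets), where the first gave 0.36 ± 0.13. Its pools read 7.69 and 7.61 at day 0 and 8.89 and 9.02 at day 14, right pool first. The second set of Col6a5 differed by 1.08 ± 0.18 at day 14 (limma adjusted p = 0.000618), where the first gave 0.026 ± 0.11 and did not pass the test. Its pools read 6.68 and 6.89 at day 0 and 7.56 and 8.17 at day 14. Before day 14 the second set of Col6a5 did not pass the test, with differences from -0.19 to 0.36. At days 5 and 7 this second set differed by 0.030 and 0.18, where the first gave -0.47 and -0.46 and was called lower.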
